A study of Mus musculus with 6 samples.

Results

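The 8 newborn neuron genes examined here were Igfbpl1, Insm1, Sox11, Sox4, Dlx2, Dcx, Tubb3 and Stmn2, out of 18193 genes measured in whole brains of neonatal mice. They were taken by symbol, with every probe set that the array annotation pairs with that gene alone, which gave 26 of 34945 single-gene probe sets. The genes were picked with measured values already known, and chosen on the contrast of testosterone propionate (TP, a testosterone ester) with vehicle on these arrays, so differences between TP and vehicle are given as a description, without a test. The comparison of the sexes was not the contrast of that choice and was tested. The difference between the sexes' TP effects was tested too. It is built from the same TP and vehicle values, so its p-values are not independent of the choice.

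The mice were C57BL/6 pups injected in the abdomen on postnatal day 2 with 1 mg of TP dissolved in 20 µL sesame oil or, as vehicle, with plain oil, and their brains were taken on postnatal day 6. There were 2 arrays of TP-treated females, 1 of TP-treated males, 2 of vehicle-treated females and 1 of vehicle-treated males. Each array held RNA pooled from 6 mice. For females, array 2 of each treatment is labelled a replica of array 1. Whether it held RNA of other mice is not said, so p-values measure only how much arrays differ, and that may be technical. Values are log2 expression units, and a difference of 1 unit is a doubling. In whole-brain RNA, fewer cells of a type and less RNA per cell cannot be told apart.

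Newborn neurons are made by progenitors that leave the cell cycle, and the young cells then migrate and grow processes before they form synapses. In the mouse brain of this age such cells are found in the subventricular zone and its stream to the olfactory bulb, in the dentate gyrus and in the cerebellum. Insm1 is a zinc finger transcription factor of progenitors committed to make neurons, and it is also expressed in neuroendocrine cells. Sox4 and Sox11 are related HMG box factors that turn on neuronal genes, among them Tubb3. Dlx2 is a homeobox factor of the precursors of inhibitory neurons. Dcx, doublecortin, binds microtubules in migrating neurons, Tubb3 is the neuronal beta-tubulin and Stmn2 is a microtubule regulator of growth cones. Igfbpl1 encodes a secreted protein related to the insulin-like growth factor binding proteins.

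Promoter sequences (build GRCm38.p6) were available for Sox11, Sox4, Dlx2, Dcx and Tubb3, and not for Igfbpl1, Insm1 and Stmn2. For Sox11, Sox4, Dlx2 and Tubb3 they ran from 250 bases before to 50 after the RefSeq start of the gene. For Dcx, a window held 73 bases before and 227 after that start, and the other began inside the gene. Those of Tubb3, the known SoxC target, and Dlx2, a gene of a single probe set that was lower with TP in each sex, are shown. Capitals mark the letters CANNTG, the general form of the E-box, and ACAAT, a core of Sox binding motifs, searched on both strands. Proneural factors and other factors read forms of the E-box, and the search did not tell these forms apart. No 2 marked motifs overlapped. Tubb3 lies on the plus strand at chr8:123411303-123411602 and Dlx2 on the minus strand at chr2:71546705-71547004, each printed 5′ to 3′.
Tubb3: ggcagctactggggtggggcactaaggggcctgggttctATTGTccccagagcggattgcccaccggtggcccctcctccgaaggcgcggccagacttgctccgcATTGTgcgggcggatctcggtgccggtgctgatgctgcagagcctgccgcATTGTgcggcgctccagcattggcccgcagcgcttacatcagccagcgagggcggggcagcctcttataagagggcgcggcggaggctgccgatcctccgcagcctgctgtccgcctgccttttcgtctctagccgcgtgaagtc
Dlx2: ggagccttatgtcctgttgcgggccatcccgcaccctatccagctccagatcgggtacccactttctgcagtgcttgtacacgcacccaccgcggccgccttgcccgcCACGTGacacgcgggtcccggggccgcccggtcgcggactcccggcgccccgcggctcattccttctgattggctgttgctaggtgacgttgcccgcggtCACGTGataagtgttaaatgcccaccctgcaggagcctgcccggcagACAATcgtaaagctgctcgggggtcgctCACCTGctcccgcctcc

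The Tubb3 window held 3 matches to ACAAT and 0 to CANNTG, and the Dlx2 window held 1 and 3. The Sox11 window held 2 matches to CANNTG and the Sox4 window 1, with 0 to ACAAT in each. Both Dcx windows, which belong to different starts and overlap, held 0 of either motif. Among 32851 promoter windows of the same length, 31.0% held ACAAT and 72.3% held CANNTG. A match describes the letters of these windows only.

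All 8 genes had a probe set above the level below which a probe set was called dim, which was 6.19 log2 units, the 40th percentile of mean expression over genes. Of the 26 probe sets, 22 were above that level. The 4 dim ones were 3 of the 8 for Sox4 and 1 of the 4 for Dcx. Sox11 had 6 probe sets, Igfbpl1, Insm1 and Stmn2 had 2 each, and Dlx2 and Tubb3 had 1 each. The brain markers Snap25, a synaptic protein of mature neurons, and Map2, a dendritic protein, stood at 12.12 to 12.32 and 12.48 to 12.71 on the 6 arrays.

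The male TP array stood apart in Xist and in some pituitary RNA. Xist, which coats and silences the inactive X chromosome, was at 10.45 in the male TP array and 5.29 in the male vehicle array, against 12.61 to 12.83 in the 4 female arrays. The Y-linked gene Eif2s3y was at 9.12 and 9.16 in the male TP and vehicle arrays, against 2.84 to 3.09 in females. The Y-linked Kdm5d was at 6.80 and 7.17 there, against 2.44 to 2.66 in females. Uty, also Y-linked, was at 5.54 and 4.84, against 2.57 to 2.69. The Xist level of the array labelled male TP thus goes against its label while the Y-linked levels do not. Whether its pool of mice held female RNA was not tested. Every male TP value below, and each sex difference that uses this array, carries that doubt. Of 9 pituitary and neuroendocrine markers, 6 of them dim, 5 were higher and 4 lower in the male TP than in the male vehicle array. Growth hormone, Gh, was at 8.55 and the precursor of corticotropin, Pomc, at 7.86 in the male TP array, against 5.37 to 5.75 and 6.45 to 6.57 on the other 5 arrays, while Lhb, the luteinizing hormone subunit, was at 5.56 in the male TP and 5.60 in the male vehicle array. The summed linear level of that list was 3910 in the male TP array and 3305 to 3505 on the others. Sex differences of the members named and medians of the lists are therefore also given without the male TP array, and the TP differences in females do not use it.

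The 3 genes of the neuronal cytoskeleton had nearly the same level on every array with their brightest probe set. Tubb3 was at 12.34 in the male and 12.44 and 12.35 in the female TP arrays, against 12.42 in the male and 12.45 and 12.38 in the female vehicle arrays. Stmn2 (1423280_at) was at 13.78 in the male and 13.71 and 13.79 in the female TP arrays, against 13.73 in the male and 13.78 and 13.76 in the female vehicle arrays. Dcx (1418139_at) was at 11.40 in the male and 11.40 and 11.46 in the female TP arrays, against 11.43 in the male and 11.41 and 11.46 in the female vehicle arrays. For these 3 probe sets TP and vehicle arrays overlapped, and the whole range over 6 arrays was 0.11, 0.07 and 0.06 units. The median range was 0.23 over the probe sets that were not dim, which were not matched to these in brightness. Other probe sets of these genes ranged more, over 0.34 to 0.49 units for Dcx and 0.15 for Stmn2.

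**Figure D1:**
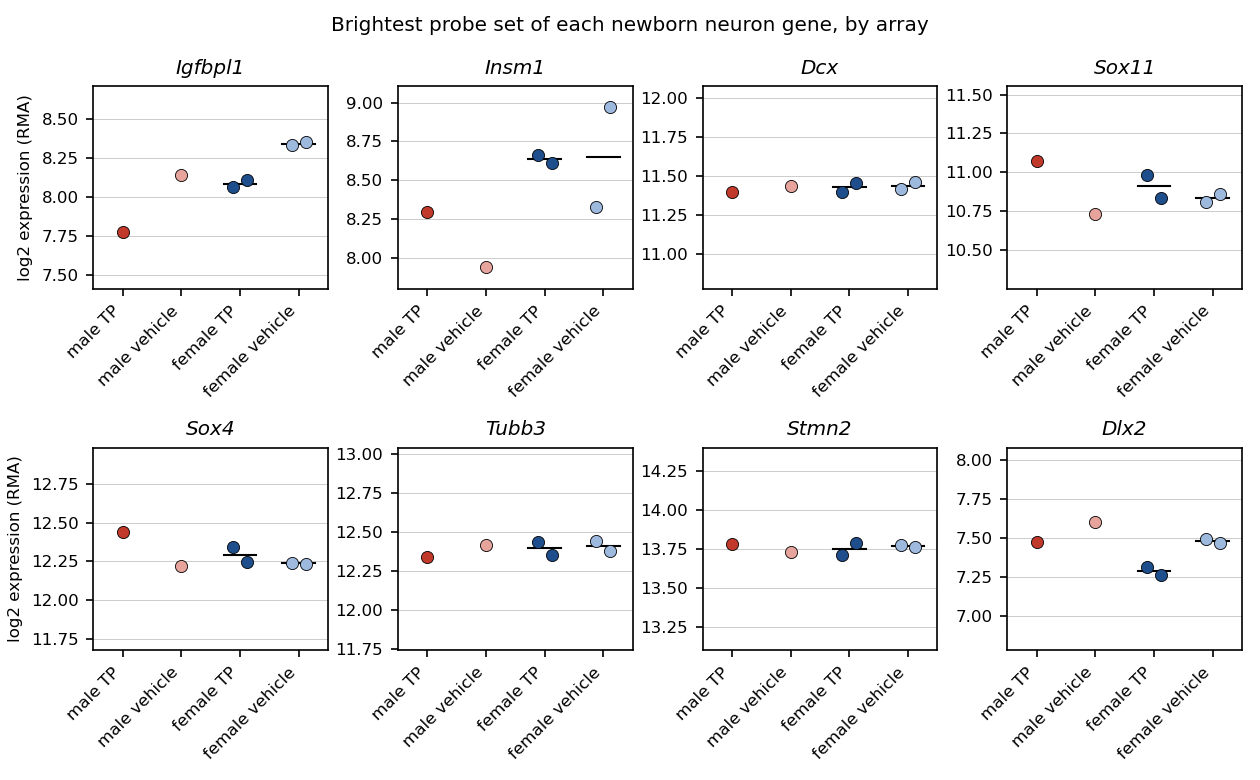
Log2 expression of the brightest probe set of each gene on each of the 6 arrays, with a separate axis of equal span per gene. Points are arrays and short lines are means of the 2 female arrays of a treatment. Dcx, Tubb3 and Stmn2 span 0.06 to 0.11 units, while Insm1 spans 1.02 and Igfbpl1 0.58.

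Between TP and vehicle, in the model of both sexes, 24 of the 26 probe sets differed by less than 0.25 log2 units, and so did 95.0% of all single-gene probe sets. The exceptions were 1 probe set of Igfbpl1, which was lower, and 1 of Sox4, which was higher. Differences were positive for 15 probe sets and negative for 11, with a median of 0.02 against -0.02 over all single-gene probe sets. The TP and vehicle arrays did not overlap for 4 probe sets that were higher and 1 that was lower. The background was 6.01% and 9.12% of all single-gene probe sets, and nothing is read from these counts because this contrast was known when the genes were chosen. In the female arrays alone, 9 probe sets were apart and higher and 4 apart and lower, beside backgrounds of 16% and 22.5%.

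Igfbpl1 was lower with TP in both sexes. Its brighter probe set (1423377_at) was at 7.77 in the male and 8.06 and 8.11 in the female TP arrays, against 8.14 in the male and 8.34 and 8.35 in the female vehicle arrays. All 3 TP arrays lay below all 3 vehicle arrays, by 0.035 units at the nearest pair. The female means were 8.09 ± 0.03 with TP and 8.34 ± 0.01 with vehicle (SD, n = 2 each). The log2 difference was -0.26 in females and -0.37 in males, and -0.30 over both, a ratio of 0.815. The second probe set (1450960_at) was at 7.85 in the male and 7.81 and 7.91 in the female TP arrays, against 7.96 in the male and 7.88 and 8.04 in the female vehicle arrays. There the groups overlapped and the difference was -0.10 over both sexes.

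Dlx2 was also lower with TP within each sex. It was at 7.47 in the male and 7.31 and 7.26 in the female TP arrays, against 7.60 in the male and 7.49 and 7.47 in the female vehicle arrays. Both female TP arrays lay below both female vehicle arrays, while the male TP array lay between the 2 female vehicle arrays. The female means were 7.29 ± 0.04 with TP and 7.48 ± 0.02 with vehicle (SD, n = 2 each). The difference was -0.19 in females and -0.13 in males.

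The 2 probe sets of Insm1 gave different pictures of TP. On the brighter one (1455865_at) it was at 8.30 in the male and 8.66 and 8.61 in the female TP arrays, against 7.94 in the male and 8.33 and 8.97 in the female vehicle arrays. The female means were 8.64 ± 0.04 with TP and 8.65 ± 0.45 with vehicle (SD, n = 2 each), and the 2 female vehicle arrays lay farther apart than the 2 male arrays did. The difference was -0.01 in females and 0.36 in males. Without female vehicle array 1 the female difference was -0.33, and without female vehicle array 2 it was 0.31. On the other (1421399_at) Insm1 was at 6.96 in the male and 7.23 and 7.43 in the female TP arrays, against 7.23 in the male and 7.50 and 7.45 in the female vehicle arrays. There the difference was negative in both sexes, -0.15 in females and -0.27 in males, so the male difference had opposite signs on the 2 probe sets.

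Most probe sets of Sox11 were slightly higher with TP. Over both sexes 5 of 6 had positive differences, from -0.07 to 0.16. The brightest (1453125_at) was at 11.07 in the male and 10.99 and 10.84 in the female TP arrays, against 10.74 in the male and 10.81 and 10.86 in the female vehicle arrays. Its groups overlapped. On 1453002_at Sox11 was at 10.31 in the male and 10.29 and 10.33 in the female TP arrays, against 10.06 in the male and 10.13 and 10.28 in the female vehicle arrays. All TP arrays lay above all vehicle arrays there, by 0.016 units at the nearest pair. The other Sox11 probe sets had differences over both sexes of 0.03 (1431225_at), -0.07 (1429051_s_at), 0.08 (1436790_a_at) and 0.11 (1429372_at).

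Sox4, with 8 probe sets, had 4 positive and 4 negative differences, from -0.24 to 0.31. The brightest (1433575_at) was at 12.44 in the male and 12.34 and 12.25 in the female TP arrays, against 12.22 in the male and 12.24 and 12.24 in the female vehicle arrays. The nearest arrays of the groups were 0.0032 units apart. On 1419157_at Sox4 was at 7.51 in the male and 7.16 and 7.40 in the female TP arrays, against 7.30 in the male and 6.93 and 6.92 in the female vehicle arrays. This probe set was higher with TP within each sex, with overlap when the sexes were put together. The dim probe set 1455867_at went the other way in females, at 5.29 and 5.35 with TP against 5.77 and 5.71 with vehicle, while the male arrays were at 5.52 with TP and 5.40 with vehicle. The other Sox4 probe sets had differences over both sexes of 0.0011 (1419155_a_at), -0.0059 (1419156_at), -0.11 (1449370_at), -0.04 (1458332_x_at) and 0.11 (1443778_at). The probe sets of Sox4 therefore gave no common direction.

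Among the remaining probe sets of Dcx and Stmn2, 1 of each was higher on all TP arrays. The Dcx probe set 1418140_at, close to the dim level, was at 6.52 in the male and 6.41 and 6.45 in the female TP arrays, against 6.40 in the male and 6.31 and 6.13 in the female vehicle arrays. Stmn2 (1423281_at) was at 13.50 in the male and 13.53 and 13.52 in the female TP arrays, against 13.38 in the male and 13.39 and 13.49 in the female vehicle arrays. The differences were 0.18 and 0.10 over both sexes, beside -0.02 and 0.005 on the brightest probe sets of Dcx and Stmn2. The remaining Dcx probe sets 1418141_at and 1448974_at had 0.06 and 0.03. In all, 4 of the 6 genes with more than 1 probe set had TP differences of both signs.

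**Figure D2:**
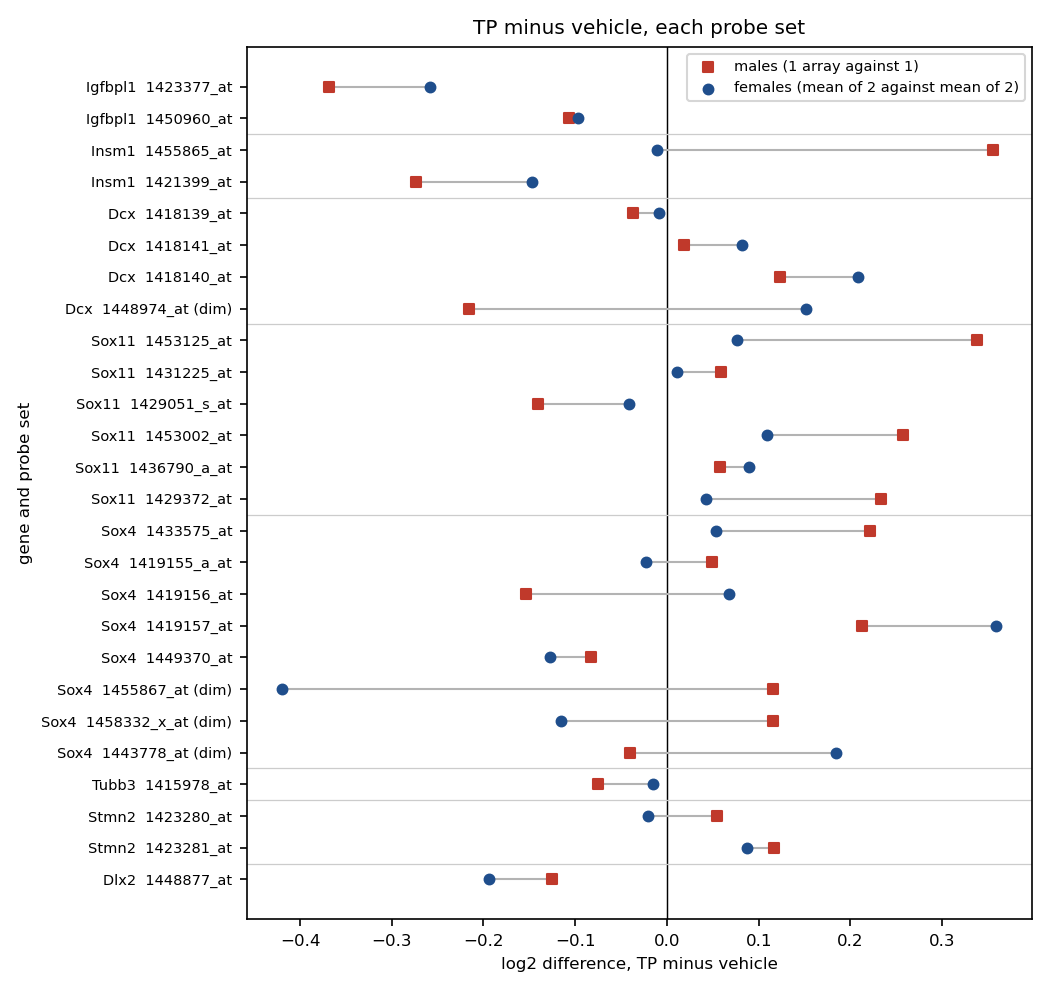
Log2 difference of TP minus vehicle for each of the 26 probe sets, in males (1 array against 1) and in females (mean of 2 arrays against mean of 2). The 2 sexes had the same sign for 18 probe sets (69.2%, beside 61.5% of all single-gene probe sets) and opposite signs for 8. In both sexes 10 probe sets lie right of 0 and 8 lie left of it, among these both Igfbpl1 probe sets, Dlx2 and Tubb3. The Sox4 probe sets lie on both sides.

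Whether the TP difference itself differed between the sexes was tested with limma in a model of the 4 groups, in which the single male arrays are assumed to vary like the female ones. Of the 26 probe sets 0 passed an adjusted p of 0.05, beside 0.02% of all single-gene probe sets, and the smallest adjusted p was 1. At an unadjusted p under 0.05 there was 1, the dim Sox4 probe set 1455867_at, with a male minus female TP effect of 0.53, beside 4.84% of all single-gene probe sets. For Igfbpl1 (1423377_at) the TP effect in males minus that in females was -0.11 (SE 0.13), for Dlx2 0.07 (SE 0.13) and for Insm1 (1455865_at) 0.37 (SE 0.34). That of Insm1 was 0.69 without female vehicle array 1 and 0.05 without female vehicle array 2. For Tubb3 it was -0.06 (SE 0.14). This test rests on both male arrays and cannot be fitted without the male TP array.

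Males and females were then compared over both treatments, adjusted for treatment. With limma, 0 of the 26 probe sets passed an adjusted p of 0.05, beside 0.0114% of all single-gene probe sets, which were 4 probe sets of the Y-linked genes Eif2s3y, Kdm5d and Uty, all higher in males. The smallest adjusted p among the 26 was 0.296. Xist, with a difference of -4.87 (SE 0.92), did not pass this test either, at the same adjusted p of 0.296. Without the male TP array its difference was -7.37. A probe set that did not pass here therefore cannot be taken as equal between the sexes. At an unadjusted p under 0.05 there were 7, or 26.9%, beside 12.5% of all. Male and female arrays did not overlap for 2 probe sets that were higher in males (7.69%) and 3 that were lower (11.5%), close to the backgrounds of 7.83% and 12.5%. Without the male TP array 0 passed, beside 0.0172% of all, and the smallest adjusted p was 0.508.

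Insm1 had the largest sex difference among the brightest probe sets of the 8 genes. With the values given above, both male arrays lay below all 4 female arrays on the brighter probe set, the nearest pair being 8.30 in the male TP array and 8.33 in a female vehicle array. The difference was -0.52 (SE 0.17, limma adjusted p = 0.328). Without the male TP array it was -0.70 (SE 0.24, adjusted p = 0.548), and without female vehicle array 2, at 8.97, it was -0.36 (adjusted p = 0.36). The other probe set was also lower in males, at -0.30 (SE 0.08, adjusted p = 0.301) and -0.24 without the male TP array, and its groups overlapped. Both probe sets of Insm1 thus had negative differences that did not pass.

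Igfbpl1 was lower in males on one probe set and level on the other. The difference was -0.26 (SE 0.06, adjusted p = 0.301) on 1423377_at and -0.0014 (SE 0.07) on 1450960_at, and -0.20 and 0.0037 without the male TP array. On the first, the male vehicle array lay between the female TP and female vehicle arrays, so the sexes overlapped. Dlx2 had 0.15 (SE 0.06, adjusted p = 0.383), and 0.12 without the male TP array, with the male vehicle array above all 4 female arrays and the male TP array among them.

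Differences of Dcx were positive on 3 of its 4 probe sets and near 0 on the brightest, and did not pass. On 1418141_at it was at 11.38 and 11.36 in the male TP and vehicle arrays, against 11.13 and 11.20 in female TP and 11.04 and 11.13 in female vehicle arrays. Both male arrays lay above all female arrays, with a difference of 0.24 (SE 0.07, adjusted p = 0.301), and 0.28 (adjusted p = 0.568) without the male TP array. The brightest Dcx probe set had -0.02 (SE 0.06) instead, and -0.002 without that array. Of the dimmer ones, 1418140_at had 0.13 (SE 0.07) and 1448974_at 0.14 (SE 0.12), and without the male TP array 0.18 and 0.32. Dcx lies on the X chromosome.

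For Sox11, 5 of 6 differences were negative, from -0.16 to 0.03, and without the male TP array all 6 were negative. The probe sets 1429051_s_at and 1436790_a_at were lower in both male arrays than in any female array, at -0.16 (SE 0.07, adjusted p = 0.401) and -0.12 (SE 0.06, adjusted p = 0.467), and at -0.109 and -0.105 without the male TP array. In the array maker's naming the first of these may match more than 1 transcript or related gene. Sox4 had 5 positive and 3 negative differences, led by the dim 1443778_at with 0.40 (SE 0.08, adjusted p = 0.296) and 1419157_at with 0.30 (SE 0.09, adjusted p = 0.304). These had 0.51 and 0.38 when the male TP array was left out, and of the 8 differences 4 were then positive and 4 negative. Its brightest probe set had 0.06 (SE 0.07), and -0.02 without that array. Tubb3 had -0.03 (SE 0.07) and Stmn2 0 positive and 2 negative values, -0.0044 and -0.04 (SE 0.06 each). With that array left out these values were 0.0038 for Tubb3 and -0.04 and -0.06 for Stmn2.

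**Figure D3:**
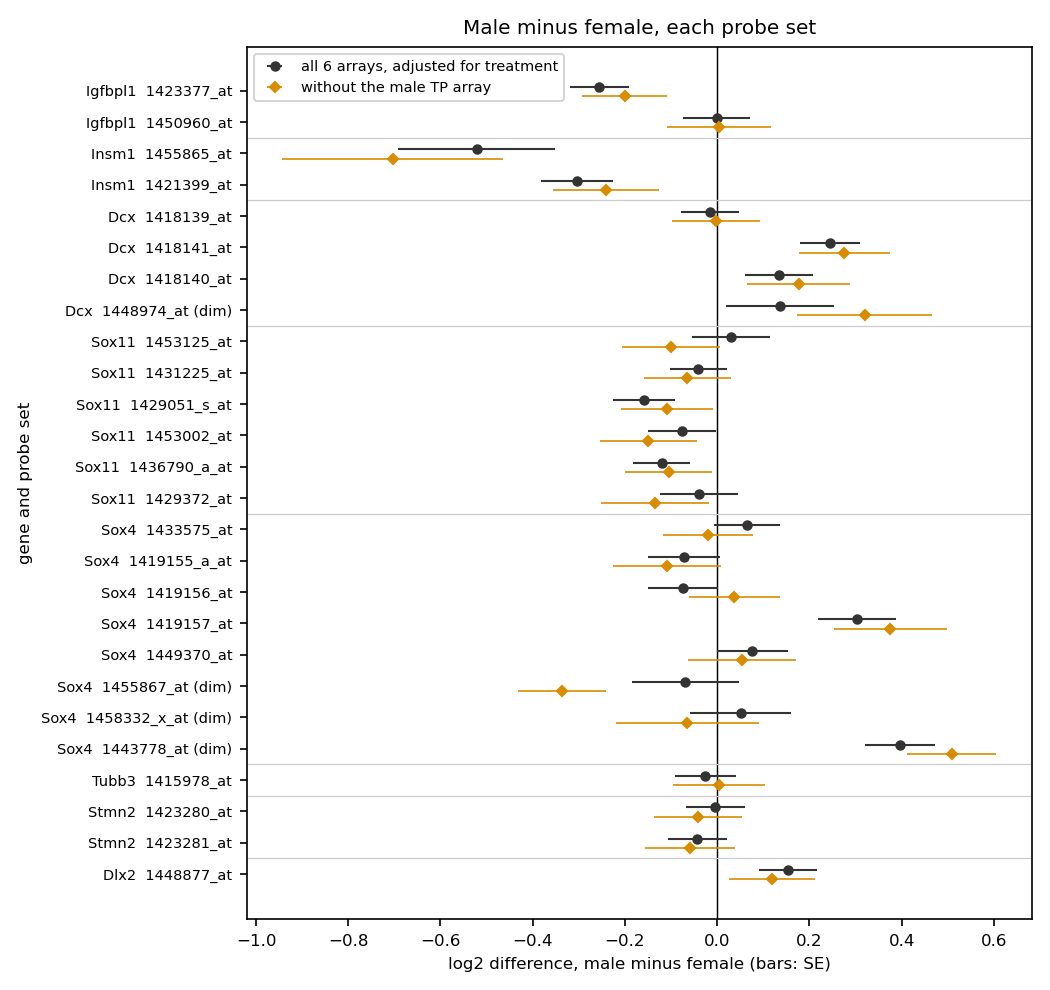
Log2 difference of male minus female for each of the 26 probe sets, with all 6 arrays and without the male TP array. Bars are standard errors from limma. The 2 Insm1 probe sets lie left of 0 in both fits, the brightest Dcx, Tubb3 and Stmn2 probe sets lie near 0, and 0 of the 26 passed.

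Other genes of the same steps were taken from 3 lists, each gene by its brightest probe set, and 0 genes of any list passed in the sex comparison. These lists and the cell type lists below were chosen with earlier results of these data known. Their counts beside a background are therefore a description and not independent evidence. Of 14 genes of intermediate progenitors and proneural factors, 4 of them dim, 12 were lower in males and 2 higher. Their median was -0.09 against -0.02 over all genes. The groups did not overlap for 3 lower and 1 higher, where the background over genes was 15.1% and 7.04%. Neurod1, a bHLH factor of granule and other neurons, had -0.36 (SE 0.08, limma adjusted p = 0.296), and Hes6, which promotes neuronal differentiation, had -0.20 (SE 0.06, adjusted p = 0.319). Neurog1, a proneural factor at a dim level, had 0.33 (SE 0.08, adjusted p = 0.296), and Mfng, a Notch-modifying enzyme, had -0.24 (SE 0.07, adjusted p = 0.308). Without the male TP array the list's median was -0.12, and these 4 genes had -0.30, -0.17, 0.47 and -0.22.

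The list of the Dlx cascade and the inhibitory neurons it makes had 4 higher and 5 lower of 9 measured genes, with a median of -0.09. Without the male TP array 2 were higher and 7 lower, with a median of -0.04. Dlx1, the neighbour of Dlx2 in the genome, had -0.17 (SE 0.06, limma adjusted p = 0.354), a value opposite in sign to Dlx2, and -0.13 without the male TP array. Sp8, a zinc finger factor of olfactory interneurons, had -0.20 (SE 0.10) and -0.002 without the male TP array. In the list of 26 genes of the young neuron's cytoskeleton and adhesion, 11 were higher and 15 lower in males, with a median of -0.01, and 12 and 14 with a median of -0.002 without the male TP array. Gap43, a growth cone protein, had -0.19 (SE 0.06, adjusted p = 0.339) and Elavl4, an RNA binding protein of neurons, had 0.13 (SE 0.08, adjusted p = 0.518), with -0.19 and -0.002 without the male TP array. Between TP and vehicle over both sexes, the medians of the 3 lists were -0.07, 0.01 and -0.002, against -0.03 over all genes, with 4 of 14, 5 of 9 and 13 of 26 positive.

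Markers of 2 other cell populations were lower in both male arrays, beside Insm1, and were not alone in this. By mean log2 level, the members and the lists of proneural factors, the Dlx cascade, neural stem cells and astrocytes were also lower there than in any female array. Proneural factors were at 7.36 and 7.37 in the male TP and vehicle arrays, against 7.42 to 7.50 in females. Cycling progenitors were at 7.59 and 7.65, against 7.86 to 7.90. Of 19 genes of cycling progenitors, 18 had negative and 1 a positive difference (median -0.23), and the sexes did not overlap for 15, all lower in males. Over all genes 10647 of 18193 had negative differences, and 15.1% were lower in males without overlap. Because the lists were chosen with earlier results known, the distance from this background was not tested. When the male TP array was left out 17 of the cycling progenitor genes were negative and 2 positive (median -0.27). Their summed linear level was 6815 in the male TP and 6987 in the male vehicle array, against 8013 to 8294 in the 4 female arrays. Spc25, of the kinetochore, had -0.49 (SE 0.06, limma adjusted p = 0.234), and -0.47 without the male TP array. Of 13 genes of cerebellar granule neurons and their precursors, 5 of them dim, all 13 had negative differences with all arrays (median -0.23) and without the male TP array (median -0.21), and 11 did not overlap, beside the same 15.1%. Their summed linear level was 9628 in the male TP and 10077 in the male vehicle array, against 11243 to 11528 in female arrays. No value in the table was 0, and 0 genes of either list passed. Insm1, Neurod1 and Pax6 are expressed in these populations too. Neurod1 is also in the list of proneural factors, and Pax6 is also in that of neural stem cells. The part of either population in the Insm1 values was not tested.

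Blood cell markers had a higher mean log2 level in both male arrays than in any female array. Of 7 genes, 6 of them dim, 6 had positive differences (median 0.31), and 3 did not overlap, all higher in males, beside 7.04% of all genes. With the male TP array left out all 7 were positive (median 0.28). Their mean log2 level was 5.10 in the male TP and 5.39 in the male vehicle array, against 4.91 to 5.01 in the 4 female arrays. Their summed linear level was 286 and 344, against 259 to 287. The gene with the smallest p was S100a8, of neutrophils, with 0.60 (SE 0.10, limma adjusted p = 0.296), and 0 genes of the list passed.

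Of 13 genes of neural stem cells and radial glia 12 had negative differences in males (median -0.09, and also -0.09 without the male TP array). Of 14 mature neuron genes 9 were negative (median -0.01), but without the male TP array 6 were (median 0.006). Of 8 astrocyte genes 7 were negative (median -0.07), and 6 without that array (median -0.02). Of 7 microglia genes 4 were negative in either case (medians -0.07 and -0.01). Of 10 oligodendrocyte genes 6 were negative (median -0.04), but 1 without that array (median 0.06). The oligodendrocyte list had a summed linear level of 12916 in the male TP array and 13918 to 14976 on the others. The pituitary list had 6 positive and 3 negative sex differences (median 0.13), and 4 and 5 without that array (median -0.05). The part of any of these lists, blood cells included, in the members' male values was not tested.

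**Figure D4:**
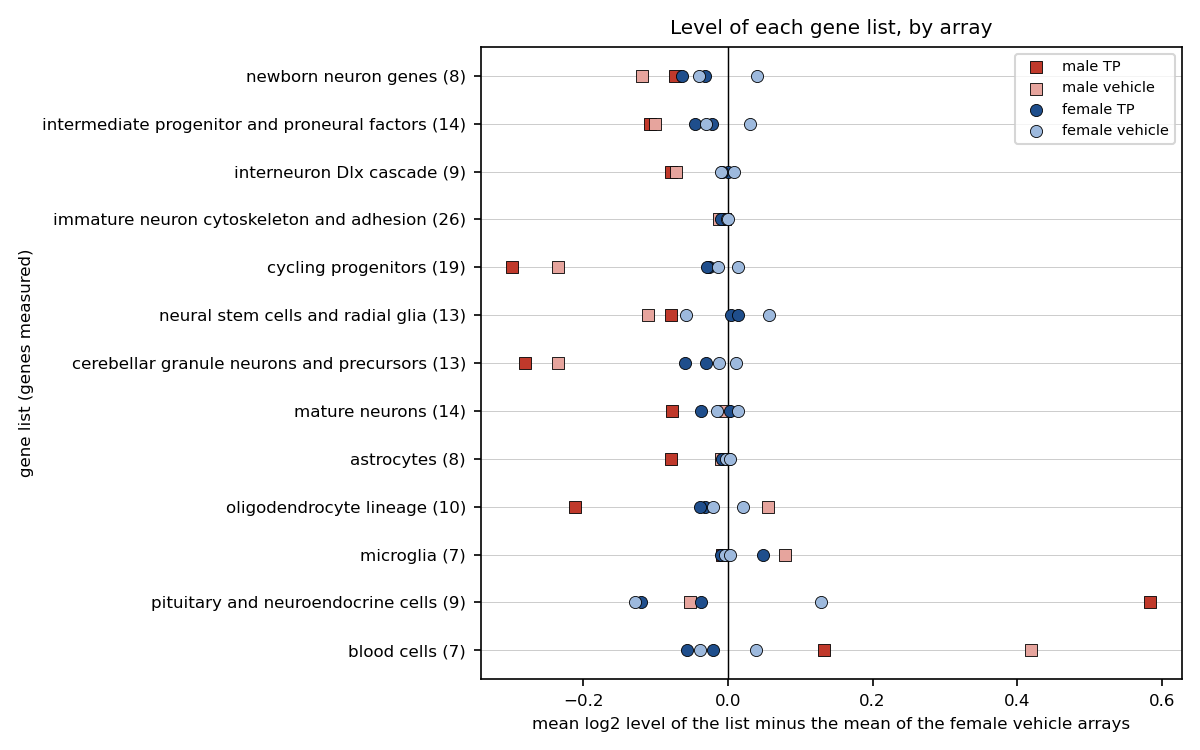
Mean log2 level of each gene list on each array, minus the mean of the female vehicle arrays, with the number of genes measured in brackets. The cycling progenitor and cerebellar lists are lower and the blood cell list is higher on both male arrays than on any female array. The newborn neuron genes and the proneural, Dlx cascade, stem cell and astrocyte lists are also lower on both male arrays, by smaller margins. The pituitary list is high on the male TP array, and the list of young neuron cytoskeleton genes lies within 0.02 units on all 6 arrays.

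The genes with profiles closest to those of the 2 most variable members were found by the root mean square distance between profiles centred over the 6 arrays, among 10915 other genes that were not dim. For Insm1 (1455865_at) the closest were Hmgb2 at 0.14, B230307C23Rik at 0.16, Nhsl1 at 0.16 and 1500009L16Rik at 0.17 log2 units, against a median distance of 0.31. Their own ranges over the arrays were 0.64, 0.51, 0.55 and 0.56, smaller than the 1.02 of Insm1. For Igfbpl1 (1423377_at) the closest were Nek2 at 0.03, Eaf1 at 0.04, Col23a1 at 0.05 and Nrk at 0.05, against a median of 0.18. These 4 had TP differences over both sexes of -0.25, -0.25, -0.23 and -0.20, beside -0.30 for Igfbpl1. These genes were picked for their likeness, and 6 arrays limit what such a distance can tell.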

How the data were processed

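RNA of whole brains was hybridised to 6 Affymetrix arrays. The deposited values are log2 expression values of 45101 probe sets that the authors made with RMA, per the submitters' processing notes. RMA corrects background, normalizes between arrays and combines probes, with the version not given in the sources used here. There are no counts or detection calls, and precision is limited by the number of arrays. Array medians lay between 5.69 and 5.74.

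Probe sets were named through the platform's annotation table. Of these, 34945 had 1 gene, 932 had several, 9160 had none and 64 were controls. Of the 34945, 34741 matched the RefSeq table of GRCm38.p6 by gene identifier, and 0 symbols differed.

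Tests used limma 3.58.1 (R 4.3.3) with lmFit and eBayes (two-sided, Benjamini-Hochberg over 34945 probe sets, threshold 0.05), and the code was tested on simulated data. Every member probe set was given a value. Up to 4 genes with the smallest p in the sex comparison were named per list spoken of, and 4 genes closest in profile to each of the 2 most variable members. Gene lists held 166 entries beside the members, of which 153 matched a measured gene. The members and lists were chosen with earlier results of these data known. Values equal to the last deposited digit were found at 136 (female TP pair), 93 (female vehicle pair) and 100 (male TP and male vehicle) single-gene probe sets. Alternatives covered the unit tested, dim probe sets, scaling, the eBayes trend, a replicate block and leaving out arrays. Figures used Python 3.11.15, pandas 2.3.3 and matplotlib 3.10.9.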

Additional observations from a re-analysis of the deposited data

Results flagged for a closer look

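The difference of the male TP from the male vehicle array was unlike that between the female arrays for Xist and Gh, which were read beside the members to describe the male TP array. For Xist all 3 probe sets passed, with the male difference minus the female one at 5 on 1436936_s_at, 5.68 on 1427262_at and 4.22 on 1427263_at (limma adjusted p of 0.000143, 0.000143 and 0.000186). For Gh 3 of 4 probe sets passed, with 4.9 on 1460613_x_at, 5.3 on 1437522_x_at and 5.17 on 1456595_x_at (adjusted p of 0.000186, 0.000143 and 0.000158). On 1437522_x_at Gh was at 8.66 in the male TP array and 3.18 in the male vehicle array, against 3.23 and 3.27 in female TP and 3.14 and 3 in female vehicle arrays. Each male group is 1 array, so the spread behind these p-values is that of the female arrays only, and the values compare these arrays rather than treatments. Xist in the array labelled male TP goes against its label, and whether that pool held female RNA was not tested. Of the 26 newborn neuron probe sets 0 differed in this way past the threshold.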

How the results depend on the processing

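The number of arrays limits every value. For members, 180 of 197 alternative values in the sex comparison kept their sign and their side of the threshold. For the TP effect in males minus that in females 95 of 96 did. In the sex comparison the smallest limma adjusted p under any alternative was 0.0894. These counts include settings that cannot change a difference, namely 1 probe set per gene, dim probe sets left out and the trend. For the TP effects' difference the replicate block cannot change it either. Vehicle arrays only gave the same differences as leaving out the male TP array. The counts therefore overstate how far the values were tried. The values that changed sign lay between -0.028 and 0.065 with all arrays, and some of their alternatives lay farther from 0. For male minus female, Dcx (1418139_at) had 0.125 with the mean of its probe sets, 0.031 with quantile normalization again and 0.011 with the replicate block. Sox11 (1453125_at) had -0.067 with the mean of its probe sets and -0.10 with vehicle arrays only, and from -0.10 to 0.16 when 1 array was left out. Stmn2 (1423280_at) had 0.077 with quantile normalization again, 0.011 with the replicate block and 0.033 with TP arrays only, and from -0.042 to 0.033 when 1 array was left out. With vehicle arrays only Sox4 (1433575_at) had -0.019 and Tubb3 0.004, and leaving out 1 array gave -0.019 to 0.149 and -0.056 to 0.004. For the TP effects' difference Dcx ranged from -0.059 to 0.003 when 1 female array was left out. Without a test, 133 of 137 TP values over both sexes and 92 of 96 in females moved by less than the residual SD. These counts too include settings that cannot change a difference, here with the replicate block among them. The exceptions came from averaging probe sets, which gave Igfbpl1 -0.20, Dcx 0.06, Sox4 0.02 and Stmn2 0.05 over both sexes. Insm1 (1455865_at) over both sexes had 0.11 with all arrays, but -0.01 without either the male TP or the male vehicle array and -0.04 and 0.33 without female vehicle arrays 1 and 2.

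Counts over all single-gene probe sets depended on settings. In the sex comparison 4 passed, all higher in males, against 8 without dim probe sets (0 higher), 37 with an intensity trend (9 higher), 2 with the replicate block and 12 with TP arrays only, and 3 to 14 when 1 array was left out. For the TP effect in males minus that in females 7 passed, against 2 with 1 probe set per gene, 2 with their mean, 4 without dim probe sets, 12 with the trend and 6 when 1 female array was left out. For TP over both sexes limma passed 0 (4304 at an unadjusted p under 0.05), against 24 without dim probe sets, 38 with the trend, and 0 to 2 when 1 array was left out. In females 2 passed, against 5 with 1 probe set per gene, 0 without dim probe sets (1747 at an unadjusted p under 0.05), 6 with quantile normalization, 8 with arrays centred, 16 with the trend and 0 when any 1 array was left out (1433 to 4415 at an unadjusted p under 0.05). The cause was not tested. Original and replica arrays deviated from their group means with a correlation over probe sets of 0.11 between treatments, which with 2 pairs does not show pairing, and the replicate block ended or made no call of a member.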
